A study of Mus musculus with 4 samples.

Results

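The regions described here were places where RBPJ was enriched at the transcription start site (TSS) of a long noncoding RNA (lncRNA) gene, away from the TSS of any protein-coding gene, in mouse alveolar macrophages (AMs), which reside in the airspace of the lung. A consensus region was a merged interval holding at least 1 peak of each of 2 RBPJ libraries. A consensus region was kept when it was at most 3000 bp wide, overlapped 1 kb either side of the TSS of a lincRNA or antisense gene, and did not overlap 1 kb either side of a protein-coding TSS. The rule used positions and no enrichment value. It found 515 regions among 24907 consensus regions up to 3000 bp wide and 25454 consensus regions in all. They are called lncRNA-start regions below. They were set beside 8629 regions at protein-coding TSSs and 15194 regions at no annotated TSS, with the same width limit. The list of replicate 2 alone gave 789 intervals by the same rule, and the list of replicate 1 alone gave 1622.

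The samples analysed here were 4 HT-ChIPmentation libraries, namely 2 libraries precipitated with an antibody to RBPJ (replicates 1 and 2) and 2 input libraries (replicates 1 and 2). HT-ChIPmentation joins chromatin immunoprecipitation with tagmentation on the beads, which allows libraries from small numbers of sorted cells. All samples were AMs from WT mice, collected by lavage and sorted by flow cytometry, and the study's methods give C57BL/6J mice of 9 wk of age. None of these 4 samples carried a treatment or a mutation in its labels, and all had the same cell type. Whether the libraries derive from separate animals is not in the labels, and with 1 condition and 2 libraries no test over samples could be made. Replicate 1 gave 106228 peaks and replicate 2 gave 47224. The peak lists carry no read counts. The study provides sequencing quality metrics, which were not used here, so depth was not weighed. All intervals below (Wilson, 95%) cover counting error over regions or genes only. These 4 libraries measured no RNA, so the cell type could not be checked here by expression. Over all protein-coding genes, 33.7% had a consensus region within 1 kb of a TSS. Of 10 AM identity genes, 9 had one (all but Marco). Of 8 genes of other lineages, 2 had one (Epcam and Pecam1), a share near that of all genes.

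RBPJ is the DNA-binding factor of the Notch pathway. Without Notch it can hold corepressors at its targets, and with the cleaved Notch receptor and a Mastermind protein it recruits coactivators. LncRNAs are long transcripts with no long open reading frame. A lincRNA gene lies between protein-coding genes, whereas an antisense gene overlaps a protein-coding gene on the opposite strand. Many lncRNAs start at enhancers or at promoters shared with other genes, and some are hosts of small RNAs.

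The sequences around 4 summits are shown because their regions were among the 6 most enriched lncRNA-start regions and lay at genes of small nuclear RNAs (snRNAs) or a tRNA. All are from RefSeq sequence of GRCm38, the assembly that mm10 names, and run 5′ to 3′ in the direction of the lncRNA. The summit is the middle base, and capitals mark bases of a RefSeq small RNA. The window of Gm28872 (chr4:132269891-132270091, plus strand) ended with 13 bases of the U11 snRNA gene Rnu11, which is transcribed toward it on the other strand. The window of D230017M19Rik (chr1:72244348-72244548, plus strand) began with the last 56 bases of the U2 gene Gm24497. The window of C920006O11Rik (chr9:78175559-78175759, plus strand) began with 75 bases of the 7SK gene Rn7sk, whose 5′ end is the last capital. The window of Gm37233 (chr1:34434792-34434992, minus strand) held the whole tRNA-Glu gene n-TEttc1, 72 bases long.
Gm28872: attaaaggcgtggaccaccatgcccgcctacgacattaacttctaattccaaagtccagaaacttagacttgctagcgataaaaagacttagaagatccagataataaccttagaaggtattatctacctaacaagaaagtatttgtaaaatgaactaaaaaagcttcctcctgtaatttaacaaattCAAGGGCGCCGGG
D230017M19Rik: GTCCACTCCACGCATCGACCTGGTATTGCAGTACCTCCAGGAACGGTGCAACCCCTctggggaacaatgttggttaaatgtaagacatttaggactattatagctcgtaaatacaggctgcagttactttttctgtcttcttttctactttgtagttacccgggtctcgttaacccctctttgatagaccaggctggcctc
C920006O11Rik: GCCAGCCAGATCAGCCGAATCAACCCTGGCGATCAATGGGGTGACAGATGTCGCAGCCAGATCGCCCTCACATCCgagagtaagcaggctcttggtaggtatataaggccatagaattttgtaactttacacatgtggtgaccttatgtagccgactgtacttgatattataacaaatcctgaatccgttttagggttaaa
Gm37233: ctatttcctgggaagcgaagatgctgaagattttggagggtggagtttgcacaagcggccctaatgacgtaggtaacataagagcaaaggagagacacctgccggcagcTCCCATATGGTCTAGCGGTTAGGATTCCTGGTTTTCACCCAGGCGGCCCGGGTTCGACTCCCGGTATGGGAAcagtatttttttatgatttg

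A further set is shown because it carried GTGGGAA, the longer form of the RBPJ recognition letters, near the summit. Capitals mark GTGGGAA on either strand, so that some appear as TTCCCAC. The windows were Gm26626 (chr16:92612515-92612615, plus strand), which starts inside Runx1 on the opposite strand, Snhg6 (chr1:9944164-9944264, minus strand), a host gene of small nucleolar RNAs, Gm45371 (chr8:26979170-26979270, minus strand), which lies opposite a coding exon of Zfp703, and Gm5547 (chr3:105816182-105816282, plus strand). Gm40304 (chr5:53547208-53547408, minus strand) starts in an intron of Rbpj itself and was added after its values were seen.
Gm26626: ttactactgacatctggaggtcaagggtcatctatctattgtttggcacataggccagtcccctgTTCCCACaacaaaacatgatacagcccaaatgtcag
Snhg6: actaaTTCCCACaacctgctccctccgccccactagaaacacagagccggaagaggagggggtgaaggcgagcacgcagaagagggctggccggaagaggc
Gm45371: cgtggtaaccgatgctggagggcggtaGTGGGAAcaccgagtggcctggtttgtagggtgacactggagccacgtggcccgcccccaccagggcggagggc
Gm5547: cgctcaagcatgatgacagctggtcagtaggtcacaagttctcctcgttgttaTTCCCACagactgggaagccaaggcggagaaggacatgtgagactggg
Gm40304: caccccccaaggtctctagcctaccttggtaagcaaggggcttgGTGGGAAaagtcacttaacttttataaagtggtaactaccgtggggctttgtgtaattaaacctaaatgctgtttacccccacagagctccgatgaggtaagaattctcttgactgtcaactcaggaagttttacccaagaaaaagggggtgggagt

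How often lncRNA starts carried RBPJ was counted over genes. A consensus region lay within 1 kb of a TSS at 945 of 8263 lincRNA and antisense genes (11.4%, interval 10.8 to 12.1). Among protein-coding genes it was 7324 of 21755 (33.7%, interval 33.0 to 34.3), and among processed pseudogenes, which are mostly silent copies, 132 of 9849 (1.34%). The share differed with the neighbourhood of the lncRNA. It was 453 of 7059 genes (6.42%, interval 5.87 to 7.01) where no protein-coding TSS lay within 1 kb of the lncRNA's TSS, and 492 of 1204 (40.9%, interval 38.1 to 43.7) where one did. Both types of lncRNA gene showed it. For lincRNA genes without such a neighbour the share was 304 of 4947 (6.15%), and with one 150 of 358 (41.9%). For antisense genes it was 149 of 2112 (7.05%) and 342 of 846 (40.4%). Protein-coding genes differed in the same direction. Without another protein-coding TSS within 1 kb their share was 5535 of 19068 (29.0%), and with one 1789 of 2687 (66.6%). The count of 945 was 1092 with the list of replicate 2 alone and 1514 with that of replicate 1 alone. In replicate 1 alone the share was 12.1% without a protein-coding neighbour and 54.6% with one, against 46.1% for protein-coding genes and 3.85% for processed pseudogenes. In replicate 2 alone it was 7.73% and 45.3%, against 37.5% and 2.04%. The order of the groups was the same in each library.

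**Figure D1:**
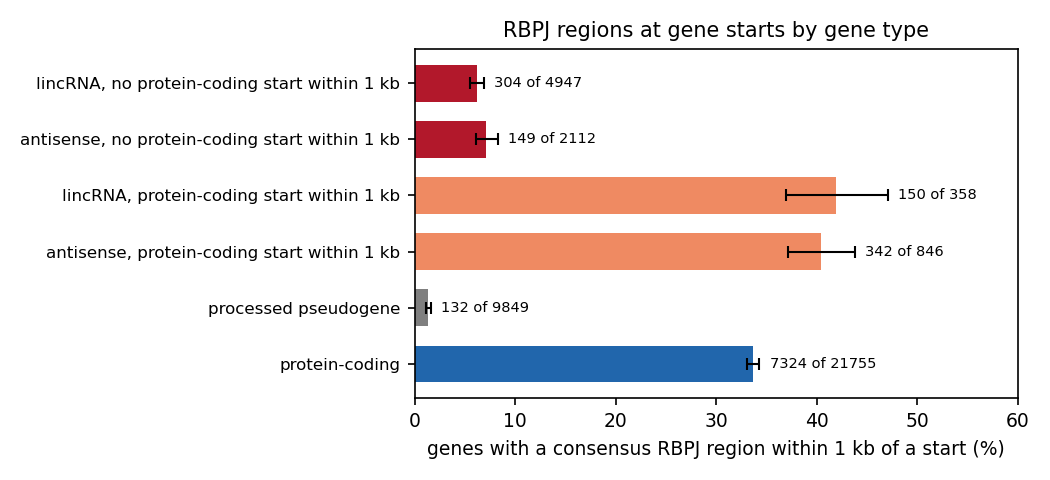
Share of genes of each type (percent, horizontal axis) with a consensus RBPJ region within 1 kb of a TSS, with Wilson 95% intervals as bars and gene numbers beside them. LncRNA genes of both types stood at 6.15% and 7.05% without a protein-coding TSS within 1 kb and at 41.9% and 40.4% with one. All protein-coding genes stood at 33.7%. Split by another protein-coding TSS within 1 kb, which is not drawn, they stood at 29.0% without and 66.6% with one.

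Of the 945 genes, 426 lay at a lncRNA-start region, 496 only at regions that also overlapped a protein-coding TSS window, and 23 only at regions over 3000 bp. The 515 regions were assigned to the lncRNA with the nearest TSS. That TSS belonged to a lincRNA in 340 regions (66.0%) and to an antisense gene in 175. In 504 regions 1 lncRNA gene had a TSS in reach, and in 11 there were 2. Some genes were assigned several regions, 4 at the p53-induced lincRNA Lncpint and at AU020206, and 3 at 9 others, among them Mirt1 and Gm26532. Regions of 1 gene share a locus, yet each counts once in the shares and intervals given here, so those intervals treat as separate what in part is not. The 515 regions fell on 421 lncRNA genes, and with 1 region per gene, the highest in lower fold, the median lower fold was 4.95.

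Enrichment at lncRNA starts was close to that of all consensus regions up to 3000 bp wide. Fold is the height of the summit over local background as the authors' peak caller gave it, and the lower fold is the smaller value of both libraries. The median lower fold was 4.69 at lncRNA-start regions (quartiles 3.96 and 5.94, range 1.98 to 24.4), against 5.02 at protein-coding TSSs, 4.35 at no TSS and 4.69 over all 24907 regions. With the 27 wider regions that otherwise met the rule kept, the median over 542 regions was 4.82. The median of the whole consensus without the width limit was not computed. LncRNA-start regions above the upper quartile of all regions (5.84) numbered 131 (25.4%, against 24.9% of all), and 123 (23.9%, against 25%) lay at or below the lower quartile (3.87). A lower −log10 q of at least 5, where q is the authors' false discovery estimate for the peak, was reached by 272 of 515 (52.8%, interval 48.5 to 57.1), against 59.5% at protein-coding TSSs, 44.6% at no TSS and 50.2% of all. LncRNA-start regions had a median width of 677 bp, against 584 bp at protein-coding TSSs, 572 bp at no TSS and 581 bp over all. Those nearest to a lincRNA had a median lower fold of 4.95 and those nearest to an antisense gene 4.36.

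**Figure D2:**
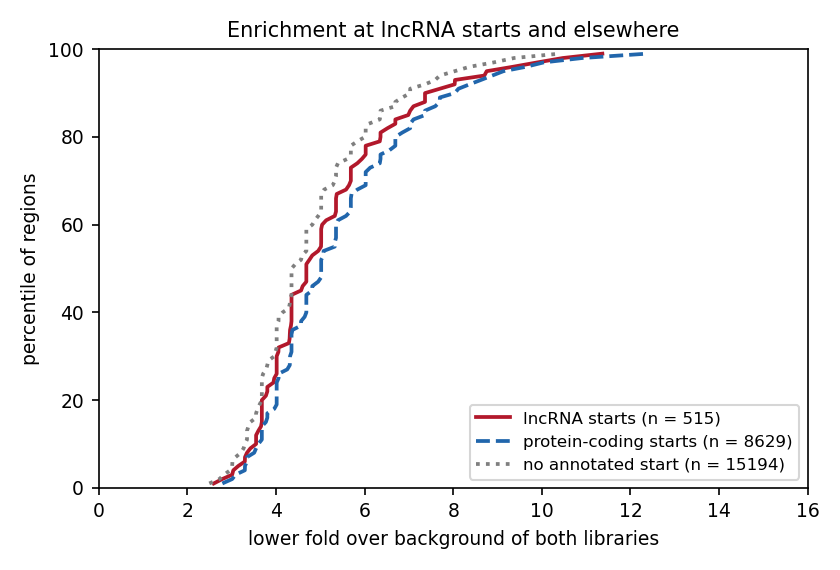
Percentile of regions (vertical axis) at each lower fold over background (horizontal axis) for lncRNA-start regions, regions at protein-coding TSSs and regions at no TSS. The curve of lncRNA starts (median 4.69) ran between those of no TSS (4.35) and protein-coding TSSs (5.02) over most of its length.

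The libraries recovered peaks at lncRNA starts more often than peaks in general. Among peaks at a lncRNA TSS and no protein-coding TSS, 637 of 795 in replicate 2 overlapped a peak of replicate 1 (80.1%, interval 77.2 to 82.8), against 83.6% of its peaks at protein-coding TSSs and 66.3% of all its peaks. In replicate 1, the longer list, 596 of 1643 did so (36.3%, interval 33.98 to 38.6), against 47.1% at protein-coding TSSs and 26.0% of all. These lncRNA-start peaks were also wider and higher than all peaks. Their median width was 236 bp against 189 bp in replicate 1, and 243 bp against 202 bp in replicate 2. Their median fold was 4.57 against 4.06 in replicate 1, and 4.69 against 4.35 in replicate 2. Whether width or fold bears on the recovery was not tested. Across the 515 lncRNA-start regions the folds of the libraries had a Spearman rho of 0.515, against 0.530 over all regions. The points share the same libraries and, in part, the same loci. The summits of the libraries lay a median of 105 bp apart, against 93 bp over all regions. Fold was higher in replicate 1 in 378 regions (73.4%, against 71.7% of all), with a median ratio of replicate 1 to replicate 2 of 1.27 (1.23 over all). The ratio was at least 2 in 50 regions (9.71%, against 8.03% of all) and at most 0.5 in 3 (0.583%, against 0.899% of all), Gm15247, Neat1 and Gm12708. Values of fold were coarse. In replicate 2 the most frequent value, 4.35, occurred in 44 of the 515 regions.

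**Figure D3:**
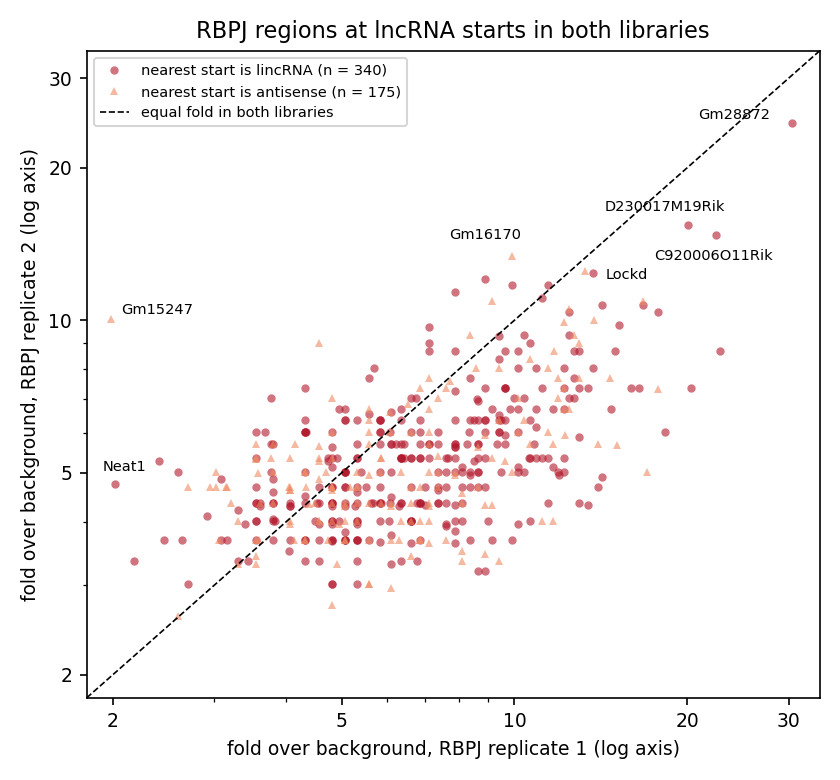
Fold over background of each of the 515 lncRNA-start regions in replicate 1 (horizontal) and replicate 2 (vertical), both on log axes, by type of the nearest lncRNA, with equal fold as a dashed line. Gm28872 stood highest in both libraries (30.4 and 24.4), and Gm15247 lay farthest to the other side of the line (1.98 and 10.1).

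Summits gathered just upstream of the lncRNA TSS. The summit used was that of whichever library had the higher fold. It lay within the 250 bp upstream of the TSS in 121 of 515 regions (23.5%, interval 20.04 to 27.3) and within the 250 bp downstream in 49 (9.51%, interval 7.27 to 12.4). The other 250-bp bins out to 1 kb held 39 to 47 each. Regions at protein-coding TSSs had the same kind of profile with a higher peak, 39.3% in the upstream bin and 13.2% in the downstream bin. Within 250 bp on either side lay 170 lncRNA-start summits (33.0%, interval 29.1 to 37.2), against 4531 of 8629 (52.5%) at protein-coding TSSs. The upstream bin held 28.0% of the regions nearest to an antisense gene and 21.2% of those nearest to a lincRNA. Farther than 1 kb lay 96 summits, whose region reached the TSS window with its edge. Median lower fold was 5.02 for the 170 regions within 250 bp, 4.35 for those farther out and up to 1 kb and 5.07 for the 96 beyond.

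**Figure D4:**
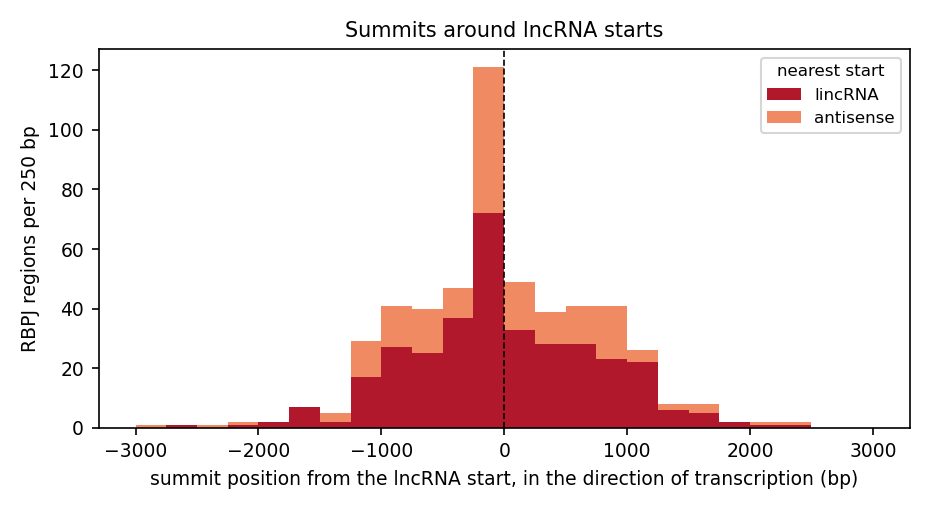
Number of lncRNA-start regions per 250 bp (vertical axis) by position of the summit from the lncRNA TSS in the direction of transcription (horizontal axis, bp; negative is upstream), stacked by type of the nearest lncRNA. The 250 bp upstream held 121 summits and each other bin within 1 kb between 39 and 49.

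Most lncRNA-start regions lay outside protein-coding genes. The summit was intergenic in 355 (68.9%), in an intron of a protein-coding gene in 146 (28.3%), in a coding exon in 7 and in a noncoding exon in 7. Of the 160 summits inside a protein-coding gene, 152 lay in a gene on the strand opposite to the lncRNA (95%). This follows in part from the definition of antisense genes, of whose 175 regions 123 had an intronic summit (70.3%), against 315 of 340 intergenic summits for lincRNAs (92.6%). The nearest protein-coding TSS was a median of 25736 bp from the summit, and it was within 2 kb in 44 regions and beyond 100 kb in 58. The median was 30987 bp for lincRNAs and 15457 bp for antisense genes. Intergenic regions had a median lower fold of 5.02 and those inside a protein-coding gene 4.35.

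In base composition the lncRNA-start regions stood between the other classes. GC content within 100 bp of the summit had a median of 47.8%, against 53.2% at protein-coding TSSs and 44.3% at no TSS. CpG dinucleotides at 0.6 or more of the number the base composition predicts, a feature of CpG-island promoters, were found in 107 of 515 (20.8%, interval 17.5 to 24.5), against 54.7% at protein-coding TSSs, 5.04% at no TSS and 22.9% of all. The share was 28.8% for summits within 250 bp of the lncRNA TSS, 18.1% for those farther out and up to 1 kb, and 13.5% beyond. CpG-rich and other lncRNA-start regions had median lower folds of 5.02 and 4.69.

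The core of the RBPJ recognition letters, TGGGAA on either strand within 100 bp of the summit, was found in 100 of 515 lncRNA-start regions (19.4%, interval 16.2 to 23.1). It was found in 17.9% of regions at protein-coding TSSs, in 19.2% at no TSS and in 18.8% of all, so the share at lncRNA starts was that of the background. The same letters in reversed order, AAGGGT, which have the same composition, were found in 54 lncRNA-start regions (10.5%) and in 9.75% of all. GTGGGAA, which contains the core, was found in 21 (4.08%, interval 2.68 to 6.15), against 4.65% of all, and AAGGGTG in 13 (2.52%). Of the 100 regions with the core, its nearest match lay within 25 bp of the summit in 27, and the next bands of 25 bp held 29, 23 and 21. These matches describe the letters in the window and not bound sites.

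Letters recognised by AP-1, CEBP factors and PU.1 were found at lncRNA starts at shares nearer to those of regions at no TSS than to those at protein-coding TSSs. TGANTCA, recognised by AP-1, was found in 63 lncRNA-start regions (12.2%, interval 9.68 to 15.3), against 5.34% at protein-coding TSSs and 11.3% at no TSS. TTGCNNAA, recognised by CEBP factors, was found in 82 (15.9%, interval 13.0 to 19.3), against 9.57% and 16.8%. GAGGAAG, a form bound by PU.1, the master factor of macrophages, was found in 85 (16.5%, interval 13.5 to 19.96), against 11.5% and 18.3%. TGTGGT, recognised by RUNX factors, was found in 92 (17.9%, interval 14.8 to 21.4), against 11.6% and 22.2%. Promoter-type letters were instead more frequent at protein-coding TSSs than at no TSS. Their shares at lncRNA starts lay between these classes, again nearer to no TSS. GGGCGG, bound by SP and KLF factors, was found in 54 (10.5%), against 32.6% and 4.34%, and CCGGAAG, bound by other ETS factors, in 25 (4.85%), against 12.5% and 1.803%. For GGGCGG the reversed letters were found in 62 (12.04%). Over all 24907 regions these letters were found in 9.21% (TGANTCA), 14.2% (TTGCNNAA), 15.9% (GAGGAAG), 18.4% (TGTGGT), 14.4% (GGGCGG) and 5.56% (CCGGAAG). The motif searches counted both strands.

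**Figure D5:**
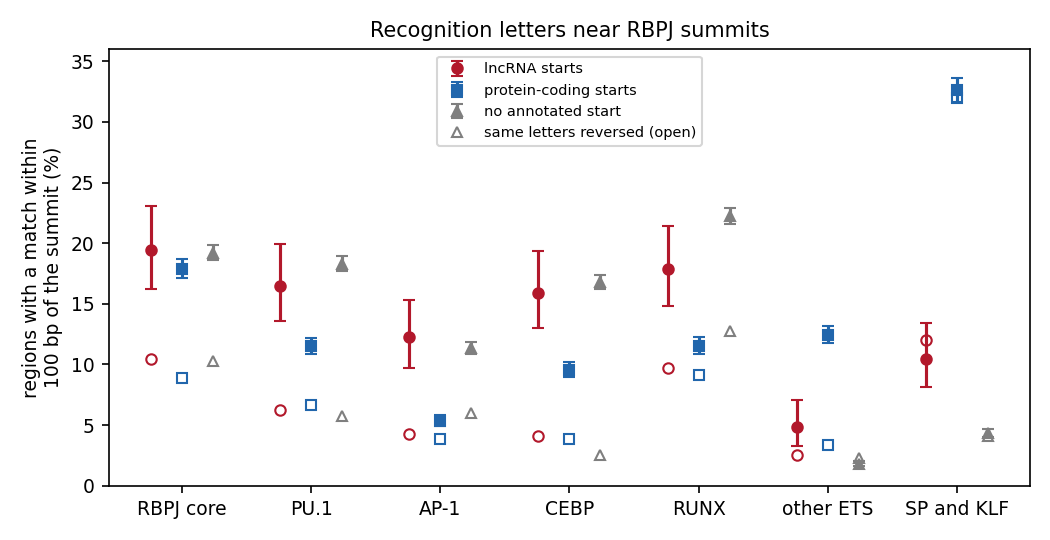
Share of regions (percent, vertical axis) with recognition letters on either strand within 100 bp of the summit, for lncRNA-start regions, regions at protein-coding TSSs and regions at no TSS, with Wilson 95% intervals. Open symbols are the same letters reversed. The RBPJ core stood near 19.4%, 17.9% and 19.2%, whereas AP-1 letters stood at 12.2%, 5.34% and 11.3%.

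The 12 regions highest in lower fold were taken one by one. Of these, 9 were nearest to a lincRNA (66.0% of all 515), 10 were intergenic (68.9% of all 515), 7 were CpG-rich (20.8%) and 11 were higher in replicate 1 (73.4%). TGGGAA was found in 1 of them, Gm37233 (19.4% of all 515). Of the same 12, 6 had a TSS of a small RNA within 1 kb in GENCODE or RefSeq. Over all 515 the share was 5.44% in GENCODE and 6.21% in RefSeq, and the share in either was not counted. In RefSeq the share also rose with fold over the whole consensus. At a lower fold of at least 10 it was 77 of 549 of all regions (14.0%, against 1.71% at any fold). For lncRNA-start regions at that fold it was 5 of 14 (35.7%, interval 16.3 to 61.2).

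Gm28872 (chr4:132268912-132270830) had folds of 30.4 (replicate 1) and 24.4 (replicate 2), the highest lower fold of the 515. Its summit lay 65 bp upstream of the lincRNA TSS and 195 bp from the 5′ end of Rnu11, which encodes the U11 snRNA of the minor spliceosome. The nearest protein-coding TSS, that of the TFIID subunit gene Taf12, was 4384 bp away. Here and below the value of replicate 1 comes before that of replicate 2. D230017M19Rik (chr1:72242752-72245255) had folds of 20.04 and 15.4 and overlapped a gene for U2, the branch-point snRNA of the spliceosome. Its other region, at another U2 gene (Gm23472), had folds of 6.60 and 5.36. C920006O11Rik (chr9:78174872-78176882) had folds of 22.5 and 14.7, with its summit 26 bp upstream of the 5′ end of 7SK, the RNA that keeps the elongation factor P-TEFb inactive. Gm37233 (chr1:34433727-34435374) had folds of 11.4 and 11.7, with its summit 9 bp upstream of the tRNA-Glu gene. 1700031P21Rik (chr12:52603250-52605626) had folds of 17.8 and 10.4, and the 5′ ends of genes of the spliceosomal U6 snRNA lay 209 bp and 594 bp from its summit. 2900060B14Rik (chr1:118458808-118459666), antisense in an intron of the microtubule-binding Clasp1, had folds of 12.4 and 10.5 and had the GENCODE snRNA gene Gm22710 within 1 kb. At these 6 regions the lncRNA TSS and a small RNA TSS lay in reach of the same region. At Gm37233 and 1700031P21Rik the summit lay more than 1 kb upstream of the lncRNA TSS, and only the edge of the region reached the TSS window. Their summits were thus nearer to the small RNA genes given above than to the lncRNA TSS. By distance to the small RNA 5′ end this also held at D230017M19Rik (235 bp against 427 bp) and C920006O11Rik (26 bp against 255 bp). At Gm28872 the lncRNA TSS was the nearer. At all 6 the parts of the lncRNA and the small RNA in the enrichment cannot be told apart.

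The other 6 of the 12 had no such small RNA. Gm26759 (chr8:126565089-126566590), 27882 bp from the corepressor gene Irf2bp2, had folds of 13.3 and 12.5. Lockd (chr6:134927295-134929075), named for its place downstream of Cdkn1b, had folds of 13.7 and 12.4, with its summit 8117 bp downstream of the TSS of that cell cycle inhibitor gene. Gm47732 (chr13:37481959-37483197) had folds of 11.2 and 11.05, and its nearest protein-coding TSS was that of Ly86, which encodes a partner of a Toll-like receptor relative, 137564 bp away. Gm20406 (chr8:121804944-121807298) had folds of 16.7 and 10.9 with a summit 33 bp upstream of its TSS. Gm44066 (chr6:128842923-128843582) had folds of 16.7 and 10.7, also with Gm26656 in reach, 16928 bp from the natural killer receptor gene Klrb1b. Gm6410 (chr8:4677243-4678881) had folds of 14.2 and 10.7. All 6 were above 10 in each library, which follows from their choice by lower fold.

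Gm6410 is shown because its window (chr8:4677789-4677989, plus strand, RefSeq sequence of GRCm38) held ACTACAA, a part of the ZNF143 recognition letters, which is marked by capitals on the opposite strand. D230017M19Rik was the other region of the 12 with these letters. They were found in 8 of the 515 lncRNA-start regions (1.55%), in 3.87% at protein-coding TSSs, in 2.14% at no TSS and in 2.73% of all.
Gm6410: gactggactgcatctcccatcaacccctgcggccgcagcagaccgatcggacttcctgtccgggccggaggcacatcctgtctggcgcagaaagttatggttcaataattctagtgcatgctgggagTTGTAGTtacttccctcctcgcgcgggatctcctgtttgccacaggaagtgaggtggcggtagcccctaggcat

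Small RNA genes were counted beside all lncRNA-start regions, a step added after the highest regions had been seen. A region counted when it overlapped 1 kb either side of the 5′ end of a RefSeq small RNA. A tRNA gene lay at 15 of 515 (2.91%, interval 1.77 to 4.75), against 36 of 8629 (0.417%) at protein-coding TSSs, 81 of 15194 (0.533%) at no TSS and 138 of 24907 (0.554%) of all. The 15 regions belonged to 11 lncRNA genes. An snRNA gene lay at 6 (1.17%, interval 0.535 to 2.52), against 0.278% at protein-coding TSSs and 0.325% of all, and these 6 belonged to 4 lncRNA genes. Counting microRNA precursors and small nucleolar RNAs as well, the share was 32 of 515 (6.21%), against 1.71% of all. Regions at no TSS lack most annotated snRNA and microRNA genes by their definition, and tRNA genes are not in that annotation. The 6 regions at snRNA genes had a median lower fold of 12.6 (5.36 to 24.4), the 15 at tRNA genes 6.36 (2.71 to 11.4) and the 494 at neither 4.69. Over the whole consensus the 219 regions at snRNA or tRNA genes had a median of 7.03 and the others 4.69. RNA polymerase III transcribes tRNA, 7SK and U6 genes, whereas U2 and U11 are made by RNA polymerase II.

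Of the 15 regions at tRNA genes, 10 had the summit within 138 bp of the 5′ end of a tRNA gene, with lower folds of 6.36 to 11.4, and 5 had it 540 to 1130 bp away, with lower folds of 2.71 to 5.94. Of these 5, 4 were second regions beside tRNA genes already counted, at Gm45605, Gm11527, Gm40190 and Gm11205, with lower folds of 4.35, 3.35, 3.30 and 2.71 in that order. Gm16170, an antisense gene, had folds of 9.90 and 13.4, with the summit 38 bp upstream of a tRNA-Thr gene. The higher region of Gm40190 had folds of 9.89 and 11.7, with the summit 1 bp upstream of a tRNA-Arg gene. Both were higher in replicate 2, unlike most lncRNA-start regions. The higher region of Gm11527 had folds of 10.4 and 9.37 at a tRNA-Gln gene, Gm46404 15.0 and 8.70 at genes for tRNA-Val and tRNA-Arg, and Gm26912 9.64 and 7.36 at a tRNA-Ile gene. The 3 regions of Gm26532, an RNA next to the precursors of Mir23a, Mir27a and Mir24-2, had lower folds of 4.95 to 6.50. Of 403 RefSeq tRNA genes in the genome, 197 had a consensus region of any kind within 1 kb (48.9%, interval 44.0 to 53.8).

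Well-known nuclear and imprinted lncRNAs were a list of 25, of which 7 had a lncRNA-start region. Over all lincRNA and antisense genes it was 426 of 8263 (5.16%), and 19 of the list were of these types. Lncpint had 4 regions, the highest with folds of 13.4 and 7.36. Ftx, a regulator in the X-inactivation centre, had 7.87 and 4.32, and its neighbour Jpx, an activator of Xist, had 4.57 and 3.35. Kcnq1ot1, the imprinted antisense RNA that silences its domain, had 8.88 and 3.45. Trp53cor1, also called lincRNA-p21, had 6.85 and 3.68. Pvt1, next to the growth gene Myc, had 3.08 and 4.86. Apart from Lncpint, each of these had a lower fold under the median of the 515. Of the other genes of the list 10 had no region at a TSS, among them Xist, Tsix, Meg3, H19, Airn and Hotair, Tug1 had only a region also at a protein-coding TSS, 4 were of another gene type (2 of these with a region) and 2 were not matched in the annotation.

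Neat1 and Malat1, the RNAs of paraspeckles and nuclear speckles, had the widest of the 27 regions that met the rule except for width and so are not among the 515. The Malat1 region was 12115 bp wide, with folds of 24.4 and 22.4. The Neat1 region (chr19:5827682-5848917), shared with the TSS of Frmd8os, was 21236 bp wide with folds of 29.9 and 27.8. Another region at Neat1 (chr19:5826311-5827621), which ended just short of the wide one, was among the 515. Its folds were 2.01 in replicate 1 and 4.76 in replicate 2, the second lowest lower fold. These values do not stand for Neat1 as a whole. Just inside the limit lay Gm14221 (2951 bp, folds 16.5 and 7.36), Gm29336 (14.0 and 4.69) and Gm39556 (11.2 and 5.36). Just outside lay the regions of 2310001H17Rik and Gm47861 (3048 bp, 10.4 and 8.58), Gm34983 and Gm35035 (3101 bp, 18.01 and 14.7) and Gm35657 (3111 bp, 12.2 and 8.37).

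Of 17 myeloid and immune lncRNAs, 12 of them lincRNA or antisense genes, 3 had lncRNA-start regions. Over all lincRNA and antisense genes it was 426 of 8263 (5.16%), and the difference was not tested. Ptgs2os2, also called lincRNA-Cox2 and located 65099 bp from the TSS of the cyclooxygenase gene Ptgs2, had folds of 8.26 and 5.69 with TGGGAA 74 bp from the summit. AW112010, an RNA of activated immune cells, had 6.09 and 5.02 with GTGGGAA 93 bp from the summit. Mirt1 had 3 regions, the highest with 6.34 and 6.69. All 3 genes had a highest lower fold above 5. A lower fold of at least 5 was reached by 45.2% of the 515 regions and 43.3% of all regions, so it is common. For Mirt1 the highest region was taken, and its other regions had lower folds under the median of the 515. Of the rest 5 had no region, among them Mir155hg, 2 had only regions also at a protein-coding TSS (Mir142hg and Gm16685), and 2 had only regions over 3000 bp (Gm14005 and Gm26917). The Gm26917 region combined low fold with high −log10 q, as given below. A further 3 were of another type, of which Mir22hg had a region, and 2 were not matched in the annotation.

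Of 24 host genes of small RNAs, 9 of them lincRNA or antisense genes, 4 had lncRNA-start regions. Over all lincRNA and antisense genes it was 426 of 8263 (5.16%), and the difference was not tested. Snhg6 had folds of 5.84 and 6.36, with the GTGGGAA shown above, and Snhg12 had 7.87 and 4.02. Snhg20 had 2 regions, the higher with 4.82 and 5.36. Epb41l4aos had 2 regions, the higher with 7.10 and 8.70. Another 8 of the list, among them Gas5, Snhg1 and Zfas1, had a region at a TSS but are annotated as processed transcripts and so fell outside the rule, as did 2 without a region. Snhg9 had only a region also at a protein-coding TSS, 4 had no region and 5 were not matched in the annotation. Of 14 lncRNAs known from neural tissue, among them Miat, Rmst and Dlx6os1, none had a lncRNA-start region, 9 being without a region and 5 of another type without a region. At 5.16% of such genes over the whole annotation, 0 of 9 is near the background.

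Genes of AM identity were a list of 33, of which 6 were the host or the nearest protein-coding gene of a lncRNA-start region. Over all protein-coding genes it was 417 of 21755 (1.92%). Nearest does not mean near, as the distances below show, and the list was chosen with earlier results known. Gm26626, antisense in an intron of Runx1, a factor that sets up the macrophage programme, had folds of 12.9 and 9.04 at its higher region and 4.70 and 5.02 at its lower one. Gm49723, on the other side of the Runx1 promoter, had 6.31 and 4.29. Gm13470, whose nearest protein-coding TSS was that of the macrophage identity factor Zeb2 at 1325235 bp, the longest such distance of the 515, had 10.1 and 8.70. D730003I15Rik, 6941 bp from the TSS of the stress factor gene Atf3, had 8.88 and 7.36 at its higher region. Plet1os, opposite Plet1, had 8.63 and 4.69. Gm38335, 13407 bp from the TSS of the fatty acid binding protein gene Fabp5, had 6.34 and 5.36. Gm49101, 2089 bp from the TSS of the ribonuclease gene Ear2, had 4.31 and 6.02. The lower fold was above the median of the 515 at both regions of Gm26626, at Gm13470, at Gm38335 and at the higher region of D730003I15Rik.

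Of 35 genes of the Notch, GM-CSF and TGF-beta pathways, 3 were the host or nearest gene of a lncRNA-start region, against the 1.92% of all protein-coding genes. Gm40304 (chr5:53546406-53547423), antisense in an intron of Rbpj, the gene of the precipitated factor, had folds of 5.85 and 5.36. Its summit lay 14 bp from the lncRNA TSS and 8526 bp from the nearest Rbpj TSS, and GTGGGAA, in capitals in the sequence above, lay 53 bp from the summit. The others were Pvt1, with Myc as its nearest gene at 51641 bp, and AC107768.1, with folds of 5.84 and 5.69, near the TGF-beta signal transducer gene Smad2. The other genes of the list, among them its Notch receptor, ligand, Hes and Hey genes, were neither host nor nearest gene of such a region, as was the case for most protein-coding genes.

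GTGGGAA was found in 21 lncRNA-start regions, and the 6 highest in lower fold were those of Gm26626, Gm45371 (2 regions), Snhg6, Gm28100 and Gm5547. The regions of Gm45371 lay opposite a coding exon of Zfp703, a zinc finger gene, and had folds of 7.36 and 7.03 at the higher and 5.58 and 6.69 at the lower. Gm28100, nearest to the lipid receptor gene Gpr55, had 7.87 and 5.69. Gm5547, nearest to the GTPase gene Rap1a, had 8.63 and 5.36 and held 3 matches of TGGGAA, 2 of them GTGGGAA. None of these was among the 12 most enriched lncRNA-start regions.

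At the low end, fold and q did not always rank regions alike. Gm15247 (chrX:169986869-169987531), antisense in an intron of the ubiquitin ligase gene Mid1, had the lowest lower fold, with 1.98 in replicate 1 and 10.1 in replicate 2. The libraries differed more there than at Gm26535, the third from the bottom, with 2.17 and 3.35. Gm15564 (chr16:35981630-35981835), antisense in an intron of the nuclear import gene Kpna1, was 452 in rank by lower fold, with 3.57 and 5.005, but 2 in rank by lower −log10 q, with values of 44.2 and 61.7. The wide region of AY036118, Gm26917 and Gm42418 had the same combination, with folds of 3.43 and 4.95 and −log10 q of 66.0 and 145. No list of problematic genome regions was used, so whether either region is a mapping artefact was not tested.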

How the data were processed

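HT-ChIPmentation of RBPJ was analysed in AMs from WT mice (2 RBPJ and 2 input libraries). According to the submitters' processing notes and the study's methods, reads were demultiplexed (bcl2fastq 2.20.0.422, CASAVA), trimmed (cutadapt), aligned to mm10 (Bowtie2) and filtered (SAMtools), and MACS3 called peaks in each library against input at a q cutoff of 0.05. The deposited lists give the fold of each summit over local background and the −log10 q of each peak as the authors' caller computed them, without read counts. Inputs were not analysed on their own.

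Overlapping peaks (1 bp or more) of both lists were merged, and intervals with a peak of each were kept. TSSs were the 5′ ends of transcripts in the basic GENCODE M21 annotation, on 20 chromosomes. Sequence and small RNAs came from RefSeq GRCm38. Sequence was scanned for 100 bp either side of the summit, taken from whichever library had the higher fold, for 12 motifs on both strands. Shares carry Wilson 95% intervals. Regions are not replicates, and no chance test was made. Analyses used Python 3.11.15, numpy 2.4.6, SciPy 1.17.1, pysam 0.24.0 and matplotlib 3.10.9, and the steps were tested on simulated data. No list of problematic genome regions was used.

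The regions, gene lists and named genes were chosen with earlier results of these data known. Named were the 12 regions highest in lower fold, the 6 highest in lower −log10 q, the 3 lowest in fold, list genes, up to 12 regions in or nearest to AM or Notch, GM-CSF and TGF-beta genes, up to 6 with GTGGGAA, and 3 on each side of the width limit. The regions at tRNA genes, Gm26532, Gm12708 and Gm40304's sequence were picked after their values were seen. Alternatives were stricter q, summit distance, TSS windows and definitions, lncRNA classes, the exclusion and width rules, sequence window and summit, leaving out each library and, added after seeing the data, the comprehensive annotation, leaving out regions near small RNAs and 1 region per lncRNA gene.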

Additional observations from a re-analysis of the deposited data

How the results depend on the processing

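Of 54 alternative values, 45 stayed within the limits set (1.5 times a count, the interval of a share, or 1.11, the SD of the library medians, for fold). The number of lncRNA-start regions, 515, was 418 to 667 under 7 of 12 alternatives. It was 273 with only peaks of a −log10 q of 5 or more in each list, 282 when the summits of the libraries had to lie within 100 bp, and 1165 with regions at protein-coding TSSs kept. It was 789 without replicate 1 and 1622 without replicate 2, whose construction asks for a peak in 1 list only. The number of lncRNA genes with a region, 945, was 641 to 1287 under 10 of 12 alternatives, 600 with summits within 100 bp, and 1092 to 1514 with either library left out. The exclusion and width rules do not enter this count. Their alternatives gave 945 by construction and so could not leave the limits, here or in the total of 45. The share with TGGGAA, 19.4%, was 18.2% to 21.7% under 15 of 16 alternatives, including 18.2% to 20.3% with either library left out, and 10.5% in the narrower window of 50 bp either side. The median lower fold, 4.69, was 4.49 to 5.02 under 13 of 14, including 4.49 to 4.69 with either library left out, and 5.84 at the stricter q, which by construction removes low peaks. The limit for fold is wide. Even the medians at no TSS (4.35) and at protein-coding TSSs (5.02) lie within it, so this is a weak check, here and in the total of 45. The comprehensive annotation, chosen after seeing the data, gave 513 regions, 974 genes, 18.9% and 4.69. The 487 regions with no GENCODE small RNA TSS within 1 kb, also chosen then, gave 19.7% and 4.69, and the 421 with 1 region per lncRNA gene, chosen then as well, 19.95% and 4.95. No paired analysis was possible because each RBPJ library has a peak list already called against input, and no test between groups was made. With 2 libraries, peak lists without read counts and the study's sequencing quality metrics not used, depth was not weighed. Shares in groups as small as 6 or 15 regions rest on few loci.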
